A study of Homo sapiens with 6 samples.

Results

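The 10 genes described here encode transcription factors and cofactors of the erythroid and early progenitor program, namely GATA1, GATA2, TAL1, KLF1, NFE2, LMO2, GFI1B, ZFPM1, BCL11A and MYB. They were taken by gene symbol from a count table of 20030 genes, by a rule that names the genes and uses no measured value, though the genes were listed with earlier results of these data known. RNA-seq was performed on 6 libraries of NCI-H929, an established human multiple myeloma cell line. In 3 libraries (IGF2BP1-KD, written KD 1 to KD 3) the cells carried a lentiviral short hairpin RNA against IGF2BP1, and in the other 3 (IGF2BP1-NC, written NC 1 to NC 3) a negative control. IGF2BP1 is an RNA-binding protein that reads N6-methyladenosine and slows the decay of the mRNAs it binds. All cells were selected with puromycin as stable lines. The methods list a pair of hairpin targets without saying which one the libraries carried, and nothing states that the libraries of a group came from separate cultures, so the p-values measure only the spread between these libraries, which may be technical.

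GATA1 and GATA2 are zinc finger proteins that bind the same DNA word. In erythroid differentiation GATA2 acts in progenitors and is displaced by GATA1 at many shared sites, an exchange known as the GATA switch. GATA factors work in a complex in which TAL1 with an E protein partner binds the E-box, LMO2 and LDB1 bridge the proteins, and ZFPM1 (FOG1) binds GATA1 directly. KLF1 binds CACCC elements of erythroid genes, NFE2 pairs with small MAF proteins, GFI1B and BCL11A are repressors, and MYB keeps progenitors dividing. Myeloma cells are malignant plasma cells, in which this program is not the usual one.

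The sequence words of these factors were searched in the windows of 250 bases before RefSeq transcription starts (GRCh38.p14), as a description. The search was chosen after 5 of the factors had been called lower. KLF1, TAL1 and GATA2 are known targets of GATA factors. The GATA word was taken as AGATAA or AGATAG or TGATAA or TGATAG on either strand, and 22.3% of the 35116 windows of this length held at least 1. The windows of KLF1 (chr19:12887202-12887451, minus strand), of the first TAL1 start (chr1:47232336-47232585, minus strand) and of the first GATA2 start (chr3:128493202-128493451, minus strand) are shown 5′ to 3′, with GATA words in capitals.
KLF1: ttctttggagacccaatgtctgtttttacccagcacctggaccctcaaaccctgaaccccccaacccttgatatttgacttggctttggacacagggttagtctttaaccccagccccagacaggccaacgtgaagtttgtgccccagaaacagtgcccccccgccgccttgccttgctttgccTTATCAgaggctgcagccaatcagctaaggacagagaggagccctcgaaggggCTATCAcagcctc
TAL1: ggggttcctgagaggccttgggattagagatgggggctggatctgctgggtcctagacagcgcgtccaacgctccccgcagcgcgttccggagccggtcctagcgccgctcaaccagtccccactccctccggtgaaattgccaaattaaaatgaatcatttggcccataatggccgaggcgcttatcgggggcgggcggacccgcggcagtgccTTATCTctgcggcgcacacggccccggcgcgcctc
GATA2: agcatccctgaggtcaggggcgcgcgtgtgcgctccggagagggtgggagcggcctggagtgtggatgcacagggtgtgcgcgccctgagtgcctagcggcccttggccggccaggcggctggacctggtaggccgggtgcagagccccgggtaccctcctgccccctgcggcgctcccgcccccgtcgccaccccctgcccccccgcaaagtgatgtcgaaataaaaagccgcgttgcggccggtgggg
KLF1 held 2 matches, beginning 66 and 13 bases before the start, and TAL1 held 1, beginning 35 bases before it. The GATA2 window held none, nor did those of the second GATA2 start, the second TAL1 start, GATA1, MYB, ZFPM1 and the first GFI1B start. The second GFI1B start (chr9:132978444-132978693, plus strand) held 1, beginning 116 bases before it. The CACCC word (CCACACCC or CCACGCCC, either strand) was found once before the second GATA2 start and once before ZFPM1, against 7.46% of all windows. The E-box CANNTG, whose letters can overlap the other words, was found in 61.8% of all windows. It occurred once each in the windows of KLF1, the first TAL1 start and the first GFI1B start. The second GFI1B start held 2 and the second GATA2 start 3. The windows of GATA1, the first GATA2 start, the second TAL1 start, ZFPM1 and MYB held none. A match describes these letters and not binding, and any relation of the words to the changes below was not tested. NFE2 and LMO2 had no window in the table, and BCL11A was not searched.

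Total counts ranged from 16885449 to 18112179 per library. IGF2BP1 fell from 47.0 ± 2.86 to 13.1 ± 0.388 FPKM (SD, n = 3), so the labels and the targeted mRNA matched. The labelled cell type did not match its markers: 5 of 10 plasma cell genes (TNFRSF17, TNFRSF13B, CD38, CD27 and FCRL5) never exceeded 3 counts, CD27 stayed at 0 throughout, and the list summed to 7.82 to 10.2 CPM (counts scaled to library size) in NC and 12.1 to 21.1 in KD. SLAMF7 was the 1 plasma cell gene that passed the test (log2 fold change 4.41, edgeR adjusted p = 0.00878), a call lost without NC 1 or NC 3. SLAMF7 had 4, 5 and 4 counts in NC 1 to NC 3 and 52, 42 and 181 in KD 1 to KD 3. It passed the filter on low counts through KD alone, so it could only be called higher. Of 11 plasma and B cell factors IRF4 and POU2AF1 likewise never exceeded 3 counts, whereas 6 exceeded 1 CPM throughout, including XBP1, a factor of secretory cells, at 101.7 ± 45.0 CPM in NC and 71.6 ± 4.14 in KD (SD, n = 3). The list summed to 97.5 to 191.1 CPM in NC and 96.7 to 109.8 in KD, and 0 of 6 tested were called by edgeR or DESeq2, with 1 at an unadjusted p under 0.05. Without KD 3 or without NC 3 edgeR called 1 of them lower. All 12 erythroid markers were above 1 CPM in every library and summed to 8311 to 10150 CPM in NC and 9182 to 10110 in KD. NC 1 stood apart from the other control libraries. It lay at least 0.5 log2 units from the mean of the other 2 for 10.6% of tested genes, against 4.64% to 7.92% in the remaining 5 libraries, and its correlations with NC 2 and NC 3 were 0.989 and 0.987, against 0.993 between those 2. Where leaving it out changed a call, a direction or an order among the members, the values without it are given.

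Granulocyte and monocyte markers differed between the groups and within KD. The 13 genes summed to 46.2 to 60.1 CPM in NC and 142 to 334 CPM in KD, most of it PRG2, an eosinophil granule protein (log2 fold change 4.14, adjusted p = 0.0114, and 0.0504 without NC 3). S100A8 and S100A9 reached 94 and 164 counts in KD 2 and 56 and 106 in KD 3, against 3 and 7 in KD 1 and at most 7 in NC. MPO had 2, 5 and 8 counts in NC 1 to NC 3 and 4, 24 and 25 in KD 1 to KD 3. For ELANE the counts were 0, 2 and 2 in NC and 3, 17 and 17 in KD. Of the 8 granulocyte genes tested, 4 were called higher (CD33, a myeloid surface receptor, by 1.29 on the log2 scale) and 0 lower, with 0 lower at an unadjusted p. CSF3R (1 to 4 counts in NC, 23 to 54 in KD) and EPX (1 to 4 and 17 to 76) were among the 4. Both passed the filter on low counts through KD alone, so they could only be called higher. Over all tested genes 28.2% were called, 13.7% higher and 14.5% lower. DESeq2 called 7 higher and 0 lower. The higher calls of edgeR numbered 8 without KD 1 and 3 without NC 3. Without KD 1, genes high in KD 2 and KD 3 alone can also pass that filter. The part of these transcripts in the results below was not tested.

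The factors were abundant on the length-corrected scale. In NC the mean FPKM ran from GATA1 at 186.5 ± 9.71 through KLF1 (131.4 ± 10.6), NFE2 (128.8 ± 5.83), MYB (50 ± 5.29), GATA2 (46.8 ± 1.32), TAL1 (38.4 ± 1.65), GFI1B (32.8 ± 7.64) and LMO2 (21.1 ± 1.76) to ZFPM1 (10.99 ± 2.33), all SD with n = 3. Of 650 genes to which the deposited table assigns a transcription factor family, GATA1 ranked 5th in NC and 6th in KD. The library ranges of KLF1 and NFE2 overlapped in NC, as did those of MYB and GATA2 and of TAL1 and GFI1B, so these neighbours were not ordered beyond their spread. Without NC 1 the values of TAL1 (38.4 and 40.02) lay above those of GFI1B (37.22 and 37.12), and the other overlaps remained. BCL11A, the repressor of fetal globin, was listed at 0 counts in 5 libraries and at 2 in KD 3. A floor of 3 counts, the upper limit that a count of 0 allows, amounts to 0.166 to 0.178 CPM here, for counting error only.

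**Figure D1:**
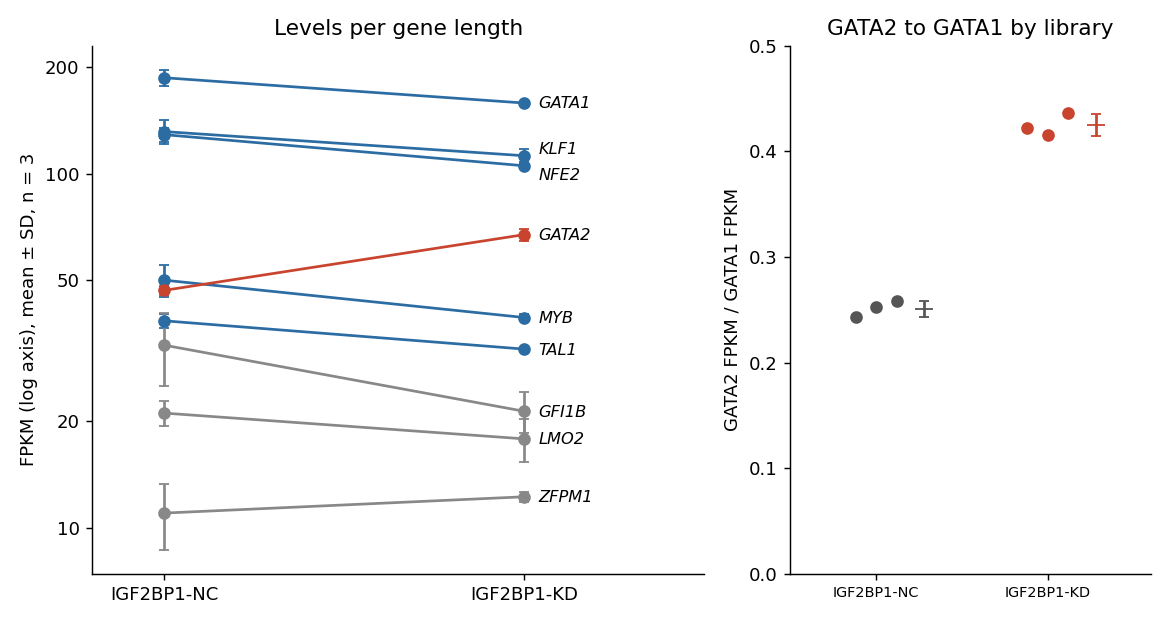
Left, mean FPKM of 9 factors on a log axis (bars, SD, n = 3) in IGF2BP1-NC and IGF2BP1-KD, with red lines for genes that passed the test upward, blue downward and grey not past it. GATA2 went from 46.8 to 67.2 FPKM and MYB from 50 to 39.2, with library ranges that overlapped in NC and lay apart in KD. Right, the ratio of GATA2 to GATA1 FPKM in each library with mean and SD, between 0.243 and 0.258 in NC and between 0.416 and 0.437 in KD.

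In KD the order became GATA1 (158.2 ± 2.45 FPKM), KLF1 (112.3 ± 4.90), NFE2 (105.2 ± 2.34), GATA2 (67.2 ± 2.73), MYB (39.2 ± 0.908), TAL1 (31.9 ± 0.152), GFI1B (21.3 ± 2.80), LMO2 (17.8 ± 2.44) and ZFPM1 (12.2 ± 0.392). The libraries of GATA2 and MYB, which overlapped in NC, lay apart in KD with GATA2 above. GATA2 ranked 57th of the 650 factor genes in NC and 33rd in KD, whereas MYB went from 48th to 67th. GFI1B and LMO2 were the neighbours whose libraries overlapped in KD.

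Of the 10 members, 9 passed the filter on low counts and entered the edgeR test, and BCL11A did not. GATA2 was called higher and GATA1, TAL1, KLF1, NFE2 and MYB lower at a Benjamini-Hochberg adjusted p under 0.05, which makes 6 calls of 9. Over all 11994 genes tested 28.2% were called (13.7% higher and 14.5% lower), and over the 525 tested genes with a transcription factor family 27% were called (12.4% higher and 14.7% lower). The median log2 fold change of the 9 members was -0.25, beside -0.0048 for all tested genes. The changes were small. Of the called members 0 reached 2-fold, as 567 of the called genes did, and the median absolute change of all called genes was 0.44. The groups did not overlap in CPM for 6 of the 9 tested members, which are the called ones, beside 45.6% of all tested genes. In bulk RNA, fewer cells that express a gene and less RNA per cell cannot be told apart.

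**Figure D2:**
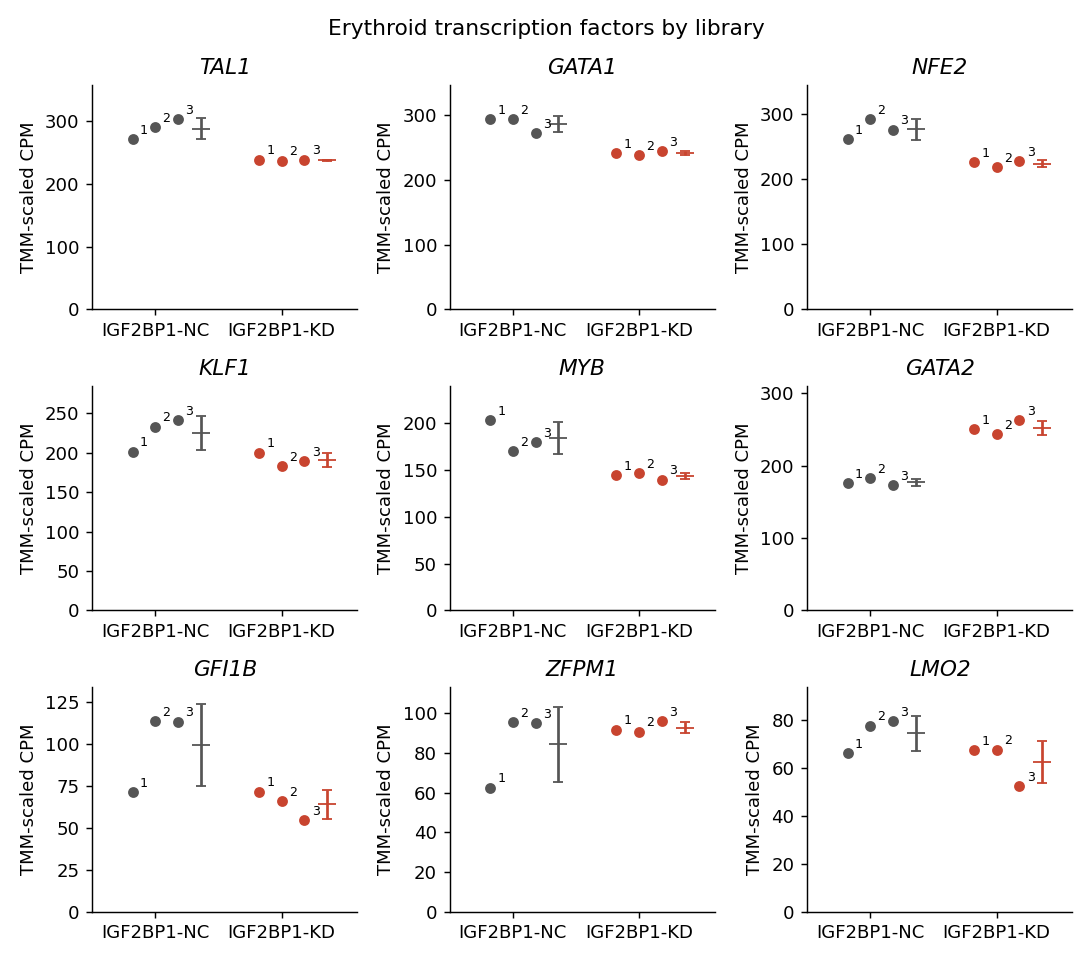
Scaled CPM of 9 factors in each library (dots numbered by replicate; bars, mean and SD, n = 3; axes start at 0). The 3 KD dots of GATA2 lie between 243.4 and 262.6 CPM, above all NC dots, and NC 1 lies well below NC 2 and NC 3 for GFI1B and ZFPM1.

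GATA2 (chr3:128479427-128493201, minus strand) rose. Its scaled CPM was 175.5, 182.3 and 172.8 in NC 1 to NC 3 and 250.6, 243.4 and 262.6 in KD 1 to KD 3. Every KD library was above every NC library, with no outlying value in either group. The log2 fold change was 0.51 (SE 0.058, 95% confidence interval 0.38 to 0.64, edgeR adjusted p = 0.000175), or 1.43-fold, and GATA2 was called in all 6 fits that left out 1 library. RENBP, WSCD2 and P4HB had the profiles most like that of GATA2 across the 6 libraries (Pearson r = 0.999, 0.999 and 0.998, among 9284 genes), a description over libraries that share the same groups.

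GATA1 (chrX:48786540-48794311, plus strand), the master regulator of erythroid genes, fell. Scaled CPM values of GATA1 were 293.6, 293.4 and 272.1 in NC and 240.8, 237.9 and 244.4 in KD. The KD libraries lay close together, and all were below the lowest NC library, NC 3. The log2 fold change was -0.25 (SE 0.058, 95% interval -0.38 to -0.12, adjusted p = 0.00918), or 0.842-fold. Without KD 2 the adjusted p was 0.0503 with a log2 fold change of -0.24. The FPKM of GATA2 divided by that of GATA1 was 0.243, 0.252 and 0.258 in NC and 0.423, 0.416 and 0.437 in KD. The ratio was higher in every KD library, by 1.69-fold between the means of 0.251 ± 0.00771 and 0.425 ± 0.0107 (SD, n = 3, exact permutation test, two-sided, p = 0.1, the smallest that 3 against 3 allows). As GATA2 was higher and GATA1 lower in every KD library, this separation and its p followed from those values. The ratio is therefore no further test.

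TAL1 (chr1:47216290-47232225, minus strand), the basic helix-loop-helix factor of the complex, fell. TAL1 stood at a scaled CPM of 270.9, 290.1 and 302.8 in NC and 238.1, 236.8 and 238.2 in KD. NC 1 was the lowest control and still above all KD libraries. This gave a log2 fold change of -0.28 (SE 0.060, adjusted p = 0.00653). LMO2 (chr11:33858576-33892076, minus strand), the LIM-only bridge to LDB1, did not pass. Its scaled CPM was 66.3, 77.8 and 79.5 in NC and 67.4, 67.7 and 52.4 in KD. NC 1 fell among the KD libraries and KD 3 was the lowest of the 6. The log2 fold change was -0.25 (SE 0.11, 95% interval -0.49 to -0.01, adjusted p = 0.108), and without NC 1 it was -0.33 with an adjusted p of 0.0310.

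KLF1 (chr19:12884422-12887201, minus strand) was called lower by the narrowest margin. KLF1 stood at a scaled CPM of 201.2, 232.8 and 241.1 in NC and 200.2, 182.8 and 189.1 in KD. NC 1 and KD 1 almost met, with no overlap. This gave a log2 fold change of -0.24 (SE 0.075, 95% interval -0.40 to -0.07, adjusted p = 0.0338). The call held in 1 of the 6 fits with a library left out, the one without NC 1 (-0.31, adjusted p = 0.00142), and the adjusted p was 0.111 without NC 2, 0.120 without NC 3, 0.0547 without KD 1, 0.134 without KD 2 and 0.0884 without KD 3.

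NFE2 (chr12:54292111-54301015, minus strand), the erythroid partner of the small MAF proteins, fell. Its scaled CPM was 261.2, 292.1 and 275.7 in NC and 226, 218.3 and 227.3 in KD. All KD libraries were below all NC libraries. The log2 fold change was -0.30 (SE 0.061, adjusted p = 0.00434). MYB (chr6:135181308-135219173, plus strand) fell as well. MYB values were, as scaled CPM, 203.3, 170.3 and 180 in NC and 144.6, 146.9 and 139.8 in KD. NC 1 was the highest library here, whereas it was the lowest control for TAL1, KLF1, NFE2, LMO2, GFI1B and ZFPM1. In edgeR, MYB had a log2 fold change of -0.36 (SE 0.071, 95% interval -0.52 to -0.20, adjusted p = 0.00389), the largest fall of the called members on all 6 libraries. Without NC 1 it was -0.28 (adjusted p = 0.00229), smaller than those of NFE2 (-0.34), TAL1 (-0.32) and KLF1 (-0.31). GRSF1, PLEKHA5 and IQSEC2 had the most similar profiles (r = 0.997, 0.996 and 0.996). TAL1, NFE2 and MYB were each called in all 6 fits that left out 1 library.

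GFI1B (chr9:132944000-132991687, plus strand), a zinc finger repressor that recruits KDM1A, had the largest fitted change among the members but did not pass. Its scaled CPM was 71.1, 113.2 and 113.1 in NC and 71.4, 65.7 and 54.5 in KD. NC 1 lay inside the range of the KD libraries, whereas NC 2 and NC 3 lay far above it. In edgeR, GFI1B had a log2 fold change of -0.63 (SE 0.21, 95% interval -1.16 to -0.11, edgeR adjusted p = 0.0748). Without NC 1 it was -0.82 (adjusted p = 0.000142), and DESeq2 on all 6 libraries gave an adjusted p of 0.0421. ZFPM1 (chr16:88453280-88537031, plus strand), the cofactor of GATA1, was the member whose direction turned. ZFPM1 values were, as scaled CPM, 62.6, 95.5 and 94.9 in NC and 91.7, 90.8 and 95.9 in KD. NC 1 was 0.60 log2 units below the mean of NC 2 and NC 3, and the remaining 5 libraries overlapped. In edgeR, ZFPM1 had a log2 fold change of 0.14 (95% interval -0.23 to 0.50, adjusted p = 0.549), and -0.04 without NC 1.

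The members also differed in how closely their libraries agreed. In NC the coefficient of variation of scaled CPM was lowest for GATA2 (2.77%) and highest for GFI1B (24.5%) and ZFPM1 (22.4%), the genes in which NC 1 differed by -0.67 and -0.60 log2 units from the mean of NC 2 and NC 3. In KD it was lowest for TAL1 (0.343%), which is under counting error alone at 4012 to 4258 counts and shows no closer agreement. The coefficient in KD was highest for LMO2 (13.97%) and GFI1B (13.5%), in which KD 3 differed by -0.37 and -0.33 from the mean of KD 1 and KD 2. Both genes therefore had a library apart from its group, LMO2 in KD and GFI1B in each group. Together the 10 genes took 0.163%, 0.173% and 0.171% of all counts in NC 1 to NC 3 and 0.153%, 0.150% and 0.151% in KD 1 to KD 3, so the share was lower in every KD library.

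**Figure D3:**
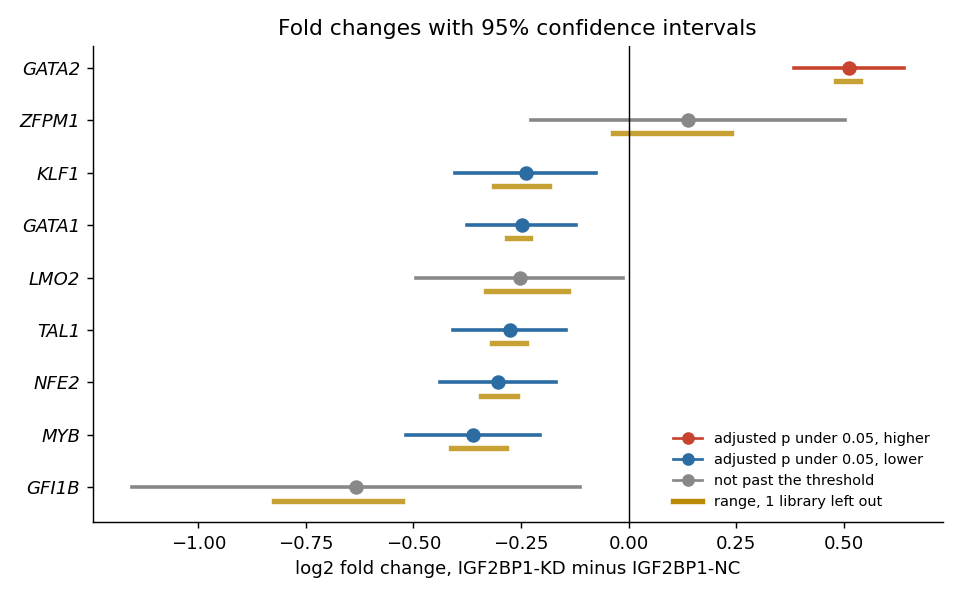
Log2 fold changes (KD minus NC) with 95% confidence intervals for the 9 tested factors, coloured by call, and in gold the range of the fold change when 1 library is left out. GATA2 lies at 0.51, GFI1B has the widest interval, and the gold range of ZFPM1 (-0.04 to 0.24) crosses 0.

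The proteins that work with the factors are described next. Of 20 complex partners, all tested, CBFA2T2, a corepressor of the ETO family, rose by 0.36 on the log2 scale, and SSBP4 (-0.55), MAFK (-0.36), MAFG (-0.24) and HDAC2 (-0.17) were called lower, with a list median of -0.02. These 5 calls of 20 stand beside 28.2% over all tested genes. MAFG and MAFK are the small MAF partners of NFE2. LDB1 (0.02), TCF3 (0.12), KDM1A (0.03) and RCOR1 (-0.08) did not pass the test. CBFA2T2 and SSBP4 were called in all 6 fits with a library left out. MAFG lost its call without KD 2 or KD 3 (adjusted p up to 0.0517), MAFK without KD 1, KD 2 or NC 2 (up to 0.069), and HDAC2 in every such fit but the one without NC 1 (up to 0.166).

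Of 20 other regulators of erythroid cells, 5 were called higher and 4 lower (28.2% of all tested genes were called), with a median of -0.06. SOX6, a repressor of embryonic globin, fell by 1.12 on the log2 scale (SE 0.20, adjusted p = 0.00252), and STAT5B (-0.44) and STAT5A (-0.32), the transducers of erythropoietin signalling, fell too. These 3 were called in every fit with a library left out. SP1 (-0.32) was the other called lower, and MXI1 (0.39), E2F4 (0.28), HMGB2 (0.25) and RB1 (0.25) were called higher. The number of higher calls in edgeR was 0 without KD 1, 0 without KD 2, 4 without KD 3, 6 without NC 1, 1 without NC 2 and 2 without NC 3, against 4 with DESeq2 on all libraries and 5 at an unadjusted p, and SP1 was lost without NC 3 or any 1 KD library (adjusted p up to 0.0993).

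Genes known as targets of the factors moved both ways. Of 24 target genes, 8 were called higher and 4 lower, beside 28.2% called over all tested genes, with a median of 0.07. Among the called genes the largest rises were those of SLC4A1, the band 3 anion exchanger (2.50, SE 0.24, adjusted p = 0.00114), CA1, a carbonic anhydrase (2.06), EPB42, a membrane skeleton protein (1.73), and AHSP, the alpha globin chaperone (0.61). ALAS2, the first enzyme of erythroid heme synthesis, had a log2 fold change of 0.73 and did not pass (adjusted p = 0.107). The lower calls included RHAG, an ammonium channel of the Rh complex (-0.63), ANK1, erythroid ankyrin (-0.30), and TRIM58 (-0.22). SLC4A1, CA1, EPB42 and RHAG kept their calls in all 6 fits with a library left out, whereas AHSP lost its call in every such fit but the one without KD 3 (adjusted p up to 0.0988) and TRIM58 in 5 of 6 (up to 0.172). ANK1 lost its call without KD 2, KD 3 or NC 3 (up to 0.0689). Of the 12 erythroid markers, which share genes with this list, 2 were called higher and 3 lower (among them HBG2, a fetal globin, -0.31).

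Factors of other blood lineages varied in level. Of 17, 10 were above 1 CPM in every library, 6 were under 1 CPM in every library (CEBPA, GFI1, IRF8, FLI1, ERG and HOXA9), and 11 were tested. CEBPE, not tested, had 5, 10 and 6 counts in NC 1 to NC 3 and 5, 6 and 32 in KD 1 to KD 3. ID3, an inhibitor of basic helix-loop-helix factors, rose by 1.53 (SE 0.27, adjusted p = 0.00730), and MEIS1 (-0.78), MEF2C (-0.76) and MECOM (-0.65), regulators of stem and progenitor cells, fell, each in all 6 fits with a library left out. These are 4 calls of 11, beside 28.2% called over all tested genes, and the median was -0.15. ID3 had 361, 374 and 643 counts in KD 1 to KD 3, and PRG2 had 1473, 1645 and 4026 in the same libraries, a relation that was not tested. Of 10 megakaryocyte markers 4 were tested. GP1BB (-0.98), GP6 (-0.92) and ITGB3 (-0.85) were lower and 0 higher, with 0 higher at an unadjusted p and by DESeq2. These 3 calls of 4 also stand beside the 28.2% over all tested genes. The other tested gene, ITGA2B, had a log2 fold change of 0.44 (adjusted p = 0.295), and without NC 1 it was called higher at 0.74. The list summed to 404 to 465 CPM in NC and 204 to 287 in KD. Without KD 2 a single gene of the 3, ITGB3, was called. PF4 did not exceed 2 counts.

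Relatives of the members by sequence family were examined as well. Of 16, 10 were tested, and ZFPM2 (-1.35, SE 0.21, adjusted p = 0.00385) and GATA5 (-0.79, adjusted p = 0.0102) fell. KLF2 rose by 2.69 from low counts, 4 to 9 in NC and 38 to 44 in KD, and entered the test through KD alone. These 3 calls of 10 stand beside 28.2% over all tested genes. MYBL2 was at 334.0 ± 16.1 CPM in NC and 329.1 ± 6.95 in KD (SD, n = 3) and did not pass. GATA3 did not exceed 4 counts, and BCL11B stayed at 0.

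**Figure D4:**
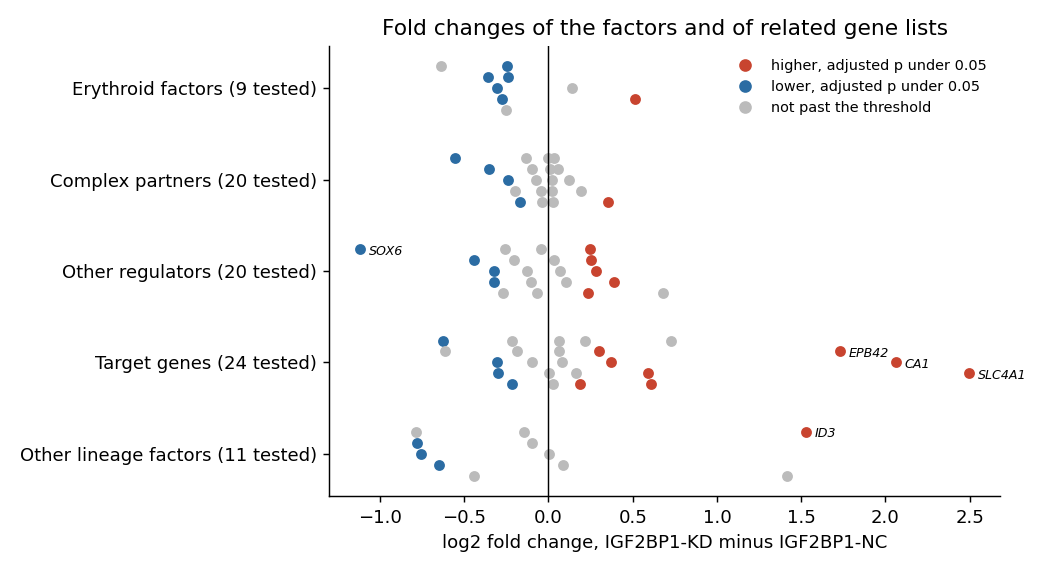
Log2 fold changes (KD minus NC) of the 9 tested factors and of the tested genes of 4 related lists, one dot per gene, red for higher, blue for lower and grey for not past the threshold. The factors lie between -0.63 and 0.51, and SLC4A1 (2.50), CA1 (2.06), EPB42 (1.73), ID3 (1.53) and SOX6 (-1.12) are labelled as the called genes beyond 1.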

How the data were processed

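The deposited table held read counts per gene and FPKM for the same 6 libraries. The authors trimmed reads with Trimmomatic, aligned them to GRCh38 with HISAT2, counted them with HTSeq and gave FPKM with Cufflinks, per the submitters' processing notes and the methods, without versions. Over 9309 genes with at least 100 counts, the deposited FPKM deviated from the count per length and total by a median of 5.4e-09%. By this measure the FPKM were the same counts rescaled, so fits on FPKM do not rest on a separate quantification. The library kit was stranded, and the strand setting of the counting is not given in the sources used here.

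Counts were tested with edgeR 4.0.16 (TMM factors, filterByExpr, robust quasi-likelihood test, two-sided, Benjamini-Hochberg over 11994 genes) in R 4.3.3. The scaled CPM used TMM factors. Biological coefficient of variation was 9.55%. DESeq2 1.42.0, library-size scaling, no filter, a replicate block, limma 3.58.1 on log2(FPKM + 1) or log2(FPKM + 0.1), and leaving out each library were alternatives. Leaving out KD 2 and KD 3 together was chosen after seeing the data. The procedure was tested on simulated data.

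The members, lists and tests were chosen with earlier results of these data known, and the list of relatives was added after the counts were seen. All 10 members are named. From each list the 4 called genes with the largest change in each direction and a mean log2 CPM of at least 1 are named, besides plasma cell genes with at most 3 counts. A gene that this rule would name is not reported here. Others named (LDB1, TCF3, KDM1A, RCOR1, XBP1, ITGA2B, ALAS2, KLF2, MYBL2, GATA3, BCL11B, low or untested lineage factors and low granulocyte or megakaryocyte genes) were chosen after their values were seen. Positions are from GENCODE 44 on GRCh38 and promoter windows from RefSeq GRCh38.p14. Columns of functional annotation were used for the transcription factor family only.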

Additional observations from a re-analysis of the deposited data

How the results depend on the processing

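The count of members called higher was 1 under every alternative run. Members called lower numbered 5 of 9, and 4 to 6 under the alternatives with all 6 libraries, 6 with DESeq2 (GFI1B added) and 4 with the replicate block (KLF1 lost, adjusted p = 0.0622). With 1 library left out they numbered 3 (without KD 2) to 7 (without NC 1), with 2290 to 3991 genes called in all against 3386. Without KD 2 and KD 3 together, which leaves 1 KD library assumed to vary like the others, 0 members were called lower by edgeR (4 at an unadjusted p under 0.05) and 566 genes in all, and the fold changes kept their direction for the called members. The block gave 2913 genes. Same-numbered libraries did not deviate together (correlations -0.052, 0.036 and -0.106), so no pairing by number was visible. The labels do not say whether same-numbered libraries were handled together. ZFPM1 turned direction without NC 1, from 0.14 to -0.036 on the log2 scale, its lowest value, against 0.24 at the highest when 1 library was left out. No scaling moved the median of all genes by over 0.1. With 3 libraries per group the spread between libraries differed by gene, and KLF1 (-0.24, SE 0.075) and LMO2 (-0.25, SE 0.11) had larger standard errors than GATA1 (-0.25, SE 0.058). The cause of the lost calls was not tested.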
